A study of Rattus norvegicus with 22 samples.

Results

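The transcripts described here are the well-expressed rows of the deposited expression table that carry no Ensembl gene ID. The table lists 29663 IDs, of which 26689 are Ensembl rat gene IDs and 2974 belong to another series, numbered in the manner of Novel02148. The members were chosen by their mean FPKM over the 12 libraries of the prefrontal cortex: 301 of the 2974 had a mean of 5 or more. FPKM is the number of fragments of an ID scaled to its length and to the size of the library. Because the mean level chose the 301 transcripts, it is given as a description only. The samples were prefrontal cortex of male Sprague-Dawley rats in 4 groups of 3 RNA libraries: controls, rats treated with WIN (a synthetic cannabinoid receptor agonist), rats treated with cocaine, and rats treated with both WIN and cocaine. All groups share strain, sex and tissue, and the labels give no age, dose, interval or genotype; the title of the series places the cannabinoid exposure in adolescence and asks how it alters the first response to cocaine. Nothing in the labels ties the 3 libraries of a group to separate animals. The p-values therefore reflect the spread between libraries, which may be technical.

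An unannotated transcript is a stretch of the genome that yields aligned reads but matches no gene model of the annotation in use. Such stretches are commonly long noncoding RNAs, further exons or untranslated ends of known genes, unspliced introns, or genes that the annotation of a less curated genome still lacks. Noncoding RNAs of the brain are known to be more tissue restricted and on average less abundant than messenger RNAs, and many lie beside or within genes of neurons. The deposited table gives an ID and 12 values for each transcript, with no position, strand, sequence or neighbouring gene, so which of these classes a transcript belongs to was not analysed here. Markers of brain cell types were not analysed either, since 0 IDs of the table matched the reference table at hand. One library stood apart from its label: WIN replicate 3 lay with the cocaine libraries in much of what follows, and results that rest on it are given with and without it. In such bulk tissue, fewer cells of a type and less RNA per cell cannot be told apart.

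The unannotated transcripts spanned levels from the threshold to those of abundant messenger RNAs. Their mean FPKM had a median of 11.03, with quartiles of 7.14 and 23.5 and a highest value of 396; the 9871 Ensembl IDs with a mean of 5 or more had a median of 18.6. Of the 301, 137 lay between 5 and 10 FPKM, 69 between 10 and 20, 59 between 20 and 50, 18 between 50 and 100, and 18 above 100. The 301 are 10.1% of all IDs of that series but held 68.9% of the reads of those IDs. Each was detected in every library: the lowest number of reads behind any value was 7, and 300 of the 301 had an FPKM of at least 1 in all 12 libraries.

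The most abundant transcript was Novel02148, with an implied length of 371 bp and a mean FPKM of 396, which ranks 141 among all IDs of the table. Its FPKM was 390, 381 and 393 in the control libraries, 434, 402 and 333 in WIN, 373, 395 and 395 in cocaine, and 465, 398 and 391 in WIN with cocaine. The 4 groups overlapped, with the highest value in WIN with cocaine replicate 1 and the lowest in WIN replicate 3. Novel00904 followed with a mean of 272 and differed little between libraries, from 251 in cocaine replicate 1 to 289 in control replicate 1. The next in order were Novel01695 at 221, Novel02963 at 219, Novel00913 at 192, Novel00559 and Novel02471 at 186, Novel00419 at 185, Novel01948 at 179.8 and Novel01271 at 146 (mean FPKM of 12 libraries). Novel02148 stood clear of Novel00904, since its lowest FPKM, 333, was above the highest of Novel00904, 289. Novel00904 in turn stood clear of Novel01695, whose highest value was 242, but its lowest library was just under the highest of Novel02963, 254. Further down, neighbours in this order overlapped over the libraries. Together the 10 held 14.8% of the reads of the 301 transcripts.

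**Figure D1:**
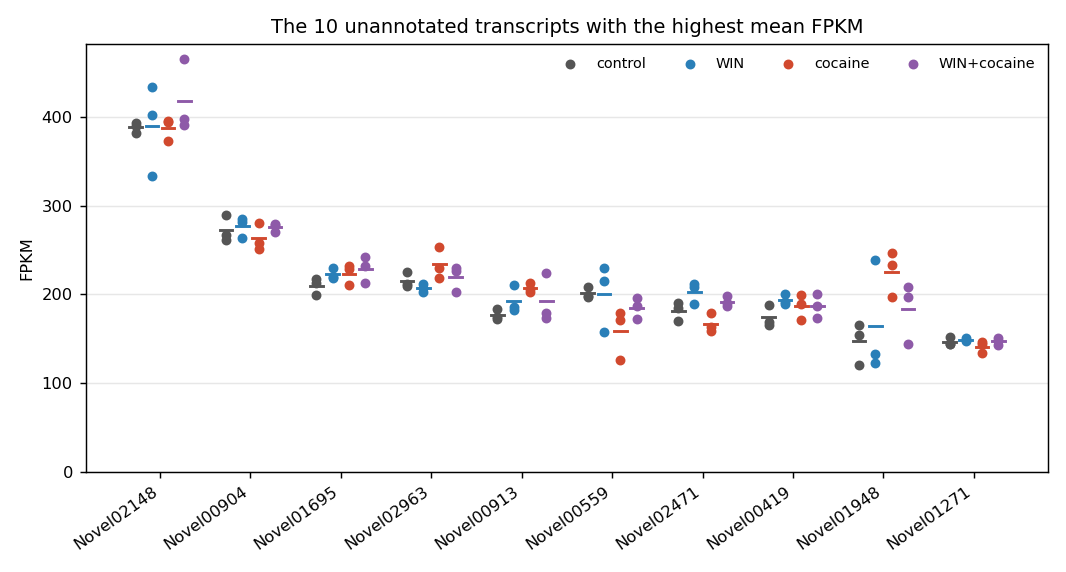
FPKM (vertical axis, linear) of the 10 unannotated transcripts with the highest mean level (horizontal axis); each point is a library, coloured by group, and each bar is the mean of the 3 libraries of a group. The 4 groups lie close together for Novel00904 and Novel01271, whereas WIN replicate 3 lies with the cocaine libraries for Novel01948 and apart from both other WIN libraries for Novel00559.

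Among these 10, Novel01271 was the steadiest and Novel01948 the most variable. Novel01271, with an implied length of 2412 bp, ran only from 133 to 152 FPKM over the 12 libraries. Novel01948 had an FPKM of 154, 120 and 166 in control and 247, 233 and 197 in cocaine, with no overlap between these groups. Its values were 122, 132 and 239 in WIN and 196, 144 and 208 in WIN with cocaine, so that WIN replicate 3 was level with cocaine. Novel00559 ran the other way, at 197, 208 and 198 in control, 171, 126 and 178 in cocaine, 215, 229 and 157 in WIN, and 187, 195 and 172 in WIN with cocaine. Here too the cocaine libraries did not overlap the controls, and WIN replicate 3 lay within the range of cocaine. Cocaine and control did not overlap in 40% of all IDs tested, so this separation is common.

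The lower edge of the set was set by the threshold alone. Novel00467 at 5.001, Novel01407 at 5.008 and Novel01681 at 5.060 were the transcripts just above a mean of 5. Novel01012 at 4.981, Novel00976 at 4.971 and Novel02348 at 4.968 were just below it. By the median over libraries instead of the mean, 297 of the 301 reached 5, and 245 had 5 or more in every library.

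As a share of all recovered reads, the 301 transcripts held 1.61% on average over the 12 libraries. Their share was 1.63%, 1.68% and 1.61% in control, 1.53%, 1.47% and 1.58% in cocaine, 1.70%, 1.73% and 1.55% in WIN, and 1.67%, 1.62% and 1.58% in WIN with cocaine. The 3 cocaine libraries thus lay below the 3 control libraries. WIN replicate 3 and replicate 3 of WIN with cocaine lay within the range of cocaine. The share of all 2974 IDs without an Ensembl ID, which include the 301, was ordered likewise. It was 2.33% to 2.43% in control, 2.15% to 2.31% in cocaine and 2.26% in WIN replicate 3. In WIN with cocaine it was 2.28% to 2.47%, with replicate 3 the lowest. As a share of the summed FPKM, which weights short transcripts more, the values were 1.47% to 1.52% in control and 1.42% to 1.49% in cocaine, and these overlapped.

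The FPKM values also gave back the length by which the authors had divided, because a value moves in steps of 1 read per length. These implied lengths ran from 269 to 11926 bp, with a median of 1921 bp and quartiles of 832 and 3588 bp. The Ensembl IDs at the same level had a nearly equal median of 1954 bp but narrower quartiles of 1260.5 and 3019 bp. Short and long transcripts were both more frequent among the unannotated ones: 10.3% were under 500 bp against 4.97% of the Ensembl IDs, 20.6% were from 500 to under 1000 bp against 11.5%, and 22.3% were 4000 bp or more against 12.8%. This difference in shape was not tested. The shortest were Novel01550 and Novel02294, each 269 bp, at mean FPKM values of 76.2 and 9.33. The longest were Novel00639 with 11926 bp at 9.34 and Novel02641 with 9720 bp at 19.3. At equal FPKM a short transcript rests on fewer reads: Novel02294 had 42 to 90 reads per library, and Novel00639 had 2050 to 3693.

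**Figure D2:**
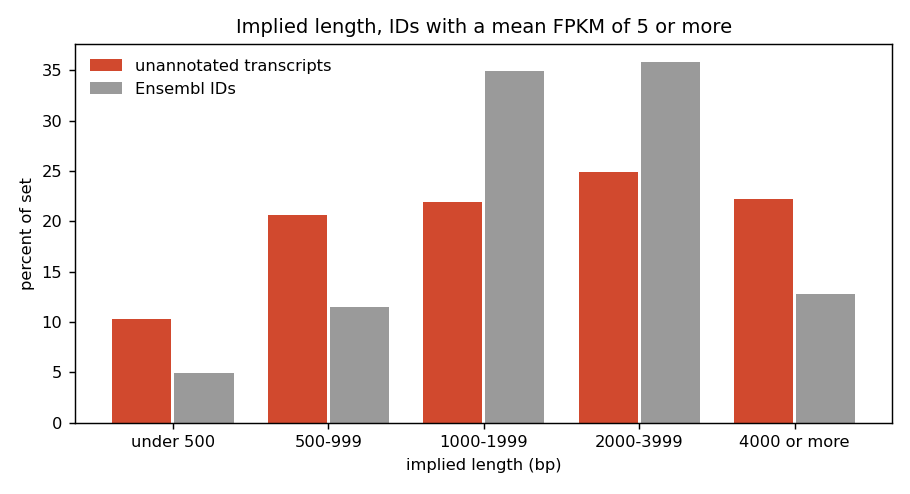
Percent of each set (vertical axis) by implied length in bp (horizontal axis), for the 301 unannotated transcripts and the 9871 Ensembl IDs with a mean FPKM of 5 or more. The unannotated transcripts are spread over all 5 classes, from 10.3% to 24.9%, whereas the Ensembl IDs gather between 1000 and 4000 bp.

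Libraries of 1 group differed more for these transcripts than for Ensembl IDs at the same level. The SD of log2(FPKM + 1) within groups had a median of 0.16 over the 301 transcripts and 0.13 over the 9871 Ensembl IDs. It was also larger within each range of level, at 0.16 against 0.14 between 5 and 10 FPKM and 0.16 against 0.12 between 20 and 50, and these differences were not tested. By group the median SD was 0.11 in control, 0.13 in WIN with cocaine, 0.17 in cocaine and 0.18 in WIN. Without WIN replicate 3 the median within groups over the 301 was 0.148, the lowest with any library left out. The value of the WIN group alone is not given without that library. From the lowest to the highest library the FPKM differed by less than 1.5-fold in 121 transcripts, by 1.5-fold to 2-fold in 124 and by 2-fold or more in 56, of which 8 reached 3-fold. The median was 1.59-fold, beside 1.43-fold for the Ensembl IDs.

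The 5 transcripts with the widest range owed it to different libraries. Novel00357 had 1 high library, cocaine replicate 1 at an FPKM of 72.3; its other values were 16.4 and 14.5 in cocaine, 15.0, 17.5 and 11.2 in control, 13.0, 34.0 and 17.9 in WIN, and 10.04, 27.9 and 19.9 in WIN with cocaine. Novel01681, the short transcript at the lower edge, ran from 0.844 in WIN with cocaine replicate 1 to 10.02 in cocaine replicate 1, on 7 to 71 reads. Novel01717 was highest in WIN, at 10.4 and 16.9, but WIN replicate 2 had 2.90, the lowest of all 12. In these 3 transcripts the groups overlapped.

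Novel01020 and Novel01894 differed more by group. Novel01020 had an FPKM of 28.3, 23.8 and 22.8 in control, 13.0, 13.6 and 7.16 in WIN, 17.5, 9.49 and 7.92 in cocaine, and 8.56, 22.1 and 10.2 in WIN with cocaine. All 9 libraries of treated rats thus lay below the 3 controls. Novel01894 had 6.18, 5.53 and 7.42 in control, 3.57, 5.25 and 2.68 in WIN, 12.6, 11.2 and 8.81 in cocaine, and 7.23, 15.0 and 7.75 in WIN with cocaine. Its 3 WIN libraries were below every other library, and its cocaine libraries were above the controls.

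**Figure D3:**
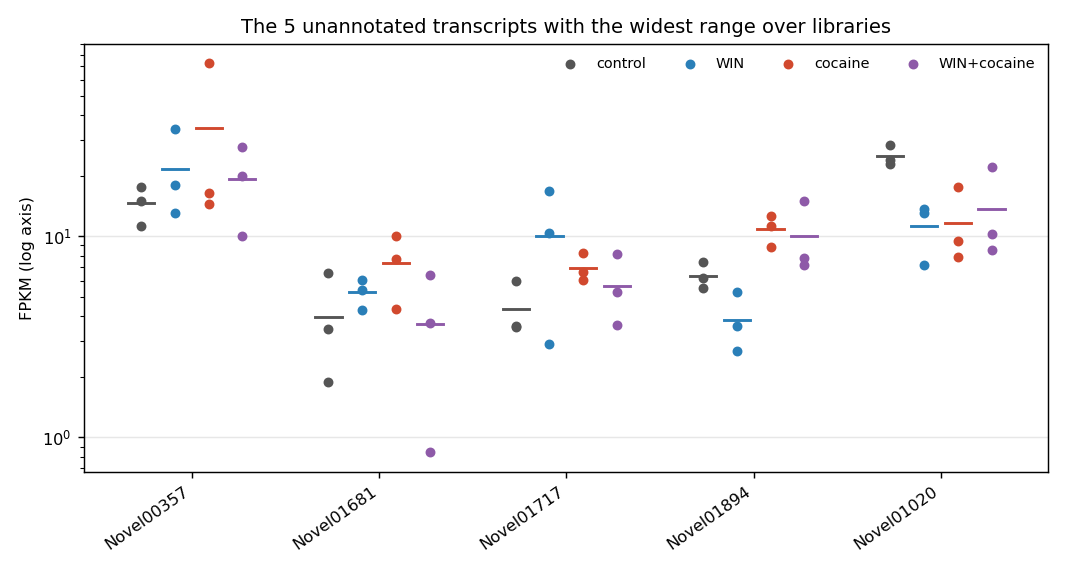
FPKM (vertical axis, log scale) of the 5 unannotated transcripts with the largest ratio of the highest to the lowest value of FPKM + 1 over 12 libraries; points are libraries and bars are group means. Novel00357 has 1 high cocaine library at 72.3, and the 3 controls of Novel01020 lie above all other libraries.

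Much of the variation was shared between transcripts. The first principal component of log2(FPKM + 1) held 46.1% of the variance over the 301 transcripts, beside 28.5% over all 15326 IDs tested and 36.0% over the Ensembl IDs with a mean of 5 or more. On this component the controls lay at 1.62, 2.96 and 1.19, the cocaine libraries at -2.27, -5.43 and -1.14, WIN at 2.76, 3.47 and -2.70, and WIN with cocaine at -0.22, 0.95 and -1.20. Control and cocaine did not overlap, whereas WIN replicate 3 lay among the cocaine libraries, apart from the other 2 WIN libraries. Over all IDs tested control and cocaine were also apart, with control at 8.45, 20.2 and 10.3 and cocaine at -27.3, -22.9 and -9.96. WIN lay there at 18.8, 11.9 and -10.3, with replicate 3 again within the range of cocaine. Both features also held over the Ensembl IDs with a mean of 5 or more, so they are not particular to the unannotated transcripts. WIN with cocaine was placed less alike. Over all IDs it lay at -4.84, 5.56 and 0.16, above every cocaine library, whereas over the 301 its replicate 3 lay just within the range of cocaine. On the component of the 301 transcripts, cocaine replicate 2 stood farthest out, whereas over all IDs tested cocaine replicate 1 did. Of the 301, 115 had their lowest value of the 12 libraries in cocaine replicate 2 and 38 their highest, while cocaine replicate 3 held the lowest of 7 and the highest of 9. Such counts over all IDs are not given here, so these cannot be read as particular to the 301.

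Some pairs of transcripts followed each other closely even within groups. After the group means were subtracted, Novel01212 (3392 bp) and Novel02070 (2112 bp) correlated with an r of 0.99 over 12 libraries, as did Novel01445 (4755 bp) and Novel02110 (7724 bp), and Novel00707 (1463 bp) and Novel01233 (4261 bp) with 0.98. These are the 3 highest of 45150 pairs, whose median r was 0.06. All pairs share the same 12 libraries, and 547 pairs exceeded 0.9 and 288 lay under -0.9. The files do not say whether such pairs lie beside each other in the genome. Novel01212 had an FPKM of 30.4, 32.0 and 27.2 in control, 32.2, 31.7 and 24.4 in WIN, 22.6, 21.5 and 24.5 in cocaine, and 26.3, 28.2 and 26.0 in WIN with cocaine. Novel02070 ran in parallel at 23.1, 25.2 and 21.5, then 24.5, 24.7 and 19.2, then 17.7, 16.7 and 19.3, and then 20.4, 22.3 and 20.1 in the same order. Both were below all controls in every cocaine library, in WIN replicate 3 and in replicates 1 and 3 of WIN with cocaine. The 30 pairs with consecutive ID numbers had a median r of 0.03, near that of all pairs.

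The effect of cocaine without cannabinoid was read from cocaine against control. This comparison gave the broadest differences among the unannotated transcripts, and these leaned downward. In limma on log2(FPKM + 1), fitted to all 15326 IDs, 0 of the 301 passed an adjusted p of 0.05 (background 0%), the smallest being 0.0596, and limma voom on recovered reads also called 0. Unadjusted, 112 of the 301 had a p under 0.05, or 37.2%, beside 31.1% of all IDs tested; 81 were lower and 31 higher in cocaine, where the background is 16% lower and 15.1% higher. At an adjusted p under 0.10, 73 of the 301 passed, 52 lower and 21 higher, beside 19.8% of all IDs (9.74% lower and 10.1% higher). The 3 cocaine values lay below the 3 control values in 90 transcripts and above them in 40, together 43.2% of the 301 (background 21.5% and 18.5%, together 40%). The median log2 difference was -0.10, beside -0.02 for all IDs tested. The 977 tested IDs without an Ensembl ID and with a mean under 5 FPKM leaned the same way, with a median of -0.035. Of these 977, 78 were lower and 38 higher at an unadjusted p under 0.05 in limma, so the direction is not particular to the 301. The differences were small: 10 transcripts were lower and 8 higher by 1.5-fold or more on this scale, which is 3.32% and 2.66% of the 301 beside 0.9% lower and 2.43% higher of all IDs.

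Of the transcripts lower in cocaine, Novel02850 and Novel00512 had the smallest p. Novel02850 (3011 bp) had an FPKM of 22.7, 27.6 and 22.8 in control and 13.5, 12.8 and 18.4 in cocaine. All cocaine values lay below all controls, and the log2 difference was -0.69 (SE 0.15), with an adjusted p of 0.0596 in limma. Novel00512 (5013 bp) had 30.2, 35.3 and 32.2 in control and 20.7, 19.7 and 24.7 in cocaine, again without overlap, a log2 difference of -0.57 (SE 0.13) and the same adjusted p in limma. In WIN they were at 25.6, 24.0 and 17.4 and at 35.1, 31.4 and 23.4, with replicate 3 the lowest of the group in both.

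Novel01155 and Novel02464 had the smallest p among those higher in cocaine. Novel01155 (1566 bp) had an FPKM of 72.5, 67.9 and 72.4 in control and 93.3, 90.2 and 87.7 in cocaine, a log2 difference of 0.35 (SE 0.09) and an adjusted p of 0.0597 in limma. Its values were also high in WIN with cocaine, at 98.2, 81.9 and 83.0, and all 6 libraries with cocaine lay above all controls. Novel02464 (1301 bp) had 8.72, 7.78 and 9.52 in control and 12.05, 14.7 and 13.5 in cocaine, a log2 difference of 0.57 (SE 0.15) and an adjusted p of 0.0614 in limma. These 4 were picked by their p in this same comparison, and their separation follows largely from that choice.

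How many transcripts met these limits depended on single libraries. WIN replicate 3 is in neither group but counts toward the spread, and without it limma called 66 of the 301 at an adjusted p of 0.05, or 21.9% beside 18.1% of all IDs. The number at an unadjusted p under 0.05 was 64 without control replicate 2, 44 lower and 20 higher (21.3% beside 18.6% of all IDs), and 71 without cocaine replicate 2, 53 lower and 18 higher (23.6% beside 23.7%).

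The downward lean in cocaine grew with implied length. Among the 67 transcripts of 4000 bp or more, 34 were lower and 5 higher at an unadjusted p under 0.05, and the median log2 difference was -0.20. Among the 93 under 1000 bp, 15 were lower and 11 higher, or 16.1% and 11.8%, with a median of -0.02; of the 2922 tested IDs of this length 10.2% were lower and 13.3% higher. The classes between gave medians of -0.06 for 66 transcripts from 1000 to under 2000 bp and -0.08 for 75 from 2000 to under 4000 bp. The 2028 tested IDs of 4000 bp or more had a median of -0.07, with 21.7% lower and 11.5% higher at that p, so that long IDs in general leaned the same way by less. Across the 301 transcripts Spearman's rho of length with the difference was -0.21, and across all 15326 IDs it was -0.08; these points share their libraries. The length classes were set after the data were seen, and the difference between the sets was not tested.

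The same order was visible library by library. As the median deviation from each transcript's mean over 12 libraries, on the log2(FPKM + 1) scale, the 67 long transcripts stood at 0.05, 0.15 and 0.04 in control, 0.13, 0.14 and -0.12 in WIN, -0.12, -0.23 and -0.04 in cocaine, and 0.01, 0.02 and -0.01 in WIN with cocaine. All cocaine libraries lay below all controls, and those given both drugs lay between. WIN replicate 3 was level with cocaine replicate 1. For the transcripts under 1000 bp the 12 values ran only from -0.05 to 0.05, and cocaine overlapped control. The median of the long transcripts in cocaine against control lay between -0.24 and -0.18 when each library was left out in turn. RNA integrity is not given in the labels, and its part in this pattern was not tested.

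**Figure D4:**
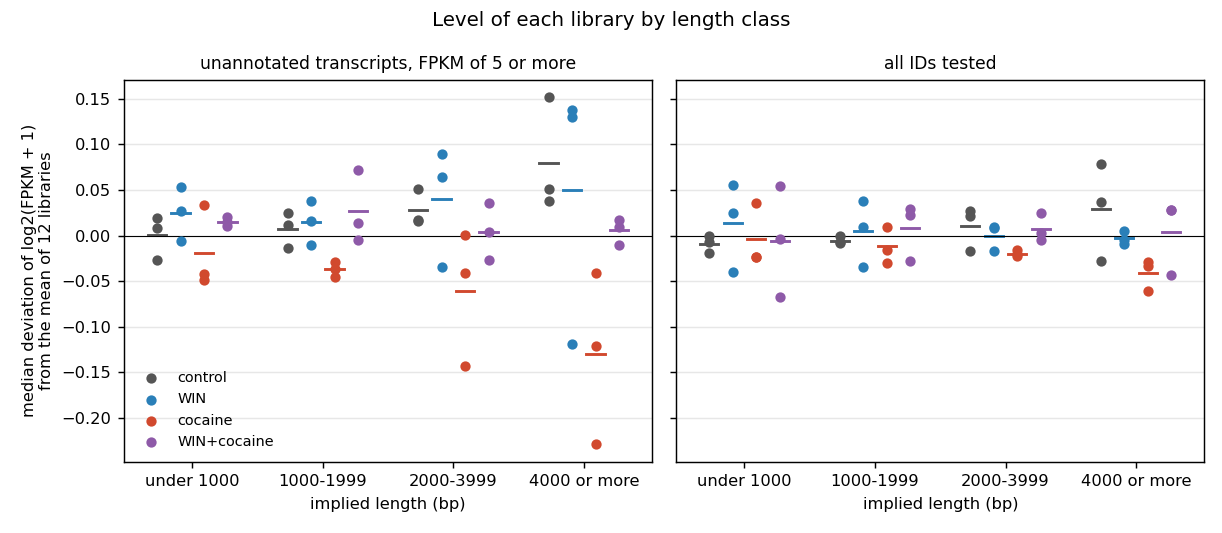
Median deviation of log2(FPKM + 1) from each ID's mean over 12 libraries (vertical axis) by implied length in bp (horizontal axis), for the 301 unannotated transcripts (left) and all 15326 IDs tested (right); points are libraries and bars are group means. At 4000 bp or more the unannotated transcripts run from 0.15 in control replicate 2 to -0.23 in cocaine replicate 2, whereas all IDs of that length run from 0.08 to -0.06.

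Both of the longest transcripts were lower in cocaine. Novel00639 (11926 bp) had an FPKM of 9.97, 10.3 and 10.03 in control and 7.43, 7.35 and 9.35 in cocaine, a log2 difference of -0.30 (SE 0.10) and an adjusted p of 0.0825 in limma. Novel02641 (9720 bp) had 19.6, 27.8 and 24.5 in control and 13.3, 19.2 and 14.3 in cocaine, a log2 difference of -0.59 (SE 0.20) and an adjusted p of 0.0803. In both the 3 cocaine values lay below the 3 controls. The 269 bp Novel02294, one of the shortest, was at 7.71, 6.68 and 8.10 in cocaine against 9.48, 11.1 and 10.9 in control. Its log2 difference was -0.44 (SE 0.15), with an adjusted p of 0.0822 in limma. Novel01550, also 269 bp, had a log2 difference of -0.33 (SE 0.14) and an adjusted p of 0.125 in limma. Both fell by more than Novel00639, so these extremes alone do not show the growth with length seen over the classes.

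WIN against control, the comparison of the cannabinoid alone, showed little difference in these transcripts. Limma called 0 at an adjusted p of 0.05 (background 0%), and every adjusted p of the 301 was 0.999; limma voom called 0 as well. Unadjusted, 6 of the 301 had a p under 0.05, 3 higher and 3 lower, or 1.99% beside a background of 1.55% (0.731% higher and 0.822% lower). The groups did not overlap in 16 transcripts, 13 higher and 3 lower in WIN, beside 5.93% of all IDs (3.18% higher and 2.75% lower). The median log2 difference was -0.005, beside -0.002 for all IDs. Without WIN replicate 3 the median was 0.046 and the 6 became 12 (3.99% beside 2.67% of all IDs); without control replicate 3 they became 3 (0.997% beside 1.61%). Without control replicate 2 the median was 0.014. The long transcripts had a median of -0.025, with 0.040 without WIN replicate 3, 0.0068 without control replicate 2, and -0.057 to -0.048 without WIN replicate 1 or 2 or without control replicate 1 or 3.

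Novel01020 had the largest difference in WIN, at 11.3 ± 3.57 against 24.97 ± 2.89 FPKM in control (SD, n = 3). On the log2 scale it was -1.12 (SE 0.34), with a limma p of 0.00701 before adjustment. Novel01894 stood at 3.83 ± 1.31 in WIN and 6.38 ± 0.958 in control (SD, n = 3), which is -0.64 on the log2 scale. Higher in value were Novel00468 (569 bp), at 14.0, 14.9 and 15.8 in WIN against 12.8, 11.97 and 11.6 in control, and Novel01455 (603 bp), at 30.9, 31.8 and 33.4 against 27.4, 25.9 and 28.3. In each of these 4 the WIN and control libraries did not overlap; they were chosen for their p here, and over all IDs the adjusted p of each was 0.999 in limma.

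WIN with cocaine against cocaine asks whether the earlier cannabinoid alters the state after cocaine. Limma called 0 of the 301 (background 0%), the smallest adjusted p being 0.468, and the voom fit called 0 too. Unadjusted, 36 had a p under 0.05, with 32 above cocaine alone and 4 below it, or 11.96% beside 10.6% of all IDs (6.06% higher and 4.53% lower). The groups did not overlap in 47, 45 higher and 2 lower (background 18%, with 11.3% higher and 6.7% lower). The median log2 difference was 0.07, beside 0.02 for all IDs, and it was 0.15 in the 67 transcripts of 4000 bp or more and 0.02 in the 93 under 1000 bp. The 977 tested IDs without an Ensembl ID and with a mean under 5 FPKM had a median of 0.05. Of these 977, 59 were higher and 12 lower at an unadjusted p under 0.05 in limma. Without cocaine replicate 2 the median was 0.04 over the 301 and 0.09 over the 67. The cocaine libraries are those of the comparison with control, so the opposite signs of the 2 comparisons are not independent. The 36 became 12 without cocaine replicate 2 (3.99% beside 7.90% of all IDs), 22 without cocaine replicate 1 (7.31% beside 6.59%), 20 without WIN with cocaine replicate 2 (6.64% beside 6.84%) and 57 without WIN replicate 3 (18.9% beside 15.3%). Without cocaine replicate 3 they were 54 (17.9% beside 13.9%), 1.5 times the 36. Novel02850 was at 21.5, 21.96 and 23.4 FPKM in WIN with cocaine, above all 3 cocaine libraries and near the controls, with a log2 difference from cocaine of 0.57 (SE 0.15). It was named for being lower in these cocaine libraries than in control, which favours such a difference.

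WIN with cocaine against WIN gives the response to cocaine after cannabinoid. Limma called 0 (background 0%), as did limma voom, and 8 of the 301 reached an unadjusted p under 0.05, 4 in each direction, or 2.66% beside 3.76% of all IDs (2.56% higher and 1.2% lower). The groups did not overlap in 17, 8 higher and 9 lower, beside 7.46% of all IDs (4.52% higher and 2.94% lower). The median log2 difference was -0.01. Novel01894 had the smallest p, with a log2 difference of 1.15 (SE 0.25), an unadjusted p of 0.000678 and an adjusted p of 0.975 in limma; its 3 libraries of WIN with cocaine were all above its 3 WIN libraries. It was chosen for its low values in WIN, which favours such a difference. This comparison rested on WIN replicate 3: without it the median was -0.07 and 61 transcripts reached an unadjusted p under 0.05, 25 higher and 36 lower (20.3% beside 14.8% of all IDs). Without WIN with cocaine replicate 2 there were 18 (5.98% beside 6.17%). The median turned to 0.0053 without WIN replicate 1 and 0.0044 without WIN replicate 2, and was -0.040 without WIN with cocaine replicate 1.

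Rats given both drugs were also set against controls. Here limma called 0 (background 0%), as did limma voom, and 18 of the 301 reached an unadjusted p under 0.05, 11 higher and 7 lower, or 5.98% beside 7.91% of all IDs (5.45% higher and 2.45% lower). The groups did not overlap in 37 transcripts that were lower and 18 that were higher (background 8.58% and 11%, together 19.6%). The median log2 difference was -0.012 over the 301 and -0.085 over the 67 long transcripts, beside -0.0022 for all IDs and -0.024 for those of 4000 bp or more. Without control replicate 2 these medians were 0.0021 and -0.041; over the 301 it was -0.029 without WIN with cocaine replicate 1, -0.027 without control replicate 3 and -0.0046 without WIN with cocaine replicate 3. The count was 29 without WIN replicate 3 (9.63% beside 11.9% of all IDs) and 10 without WIN with cocaine replicate 1 (3.32% beside 3.37%). Novel01155, given above, had a log2 difference of 0.30 (SE 0.09). It was named for being higher in cocaine than in these same controls, which favours such a difference.

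The interaction is the cocaine difference with WIN minus that without it, and tests whether the response to cocaine differed between rats with and without earlier cannabinoid. Limma called 0 of the 301 (background 0%), the smallest adjusted p being 0.539, and the voom fit called 0 too. Unadjusted, 22 had a p under 0.05, of which 17 were positive and 5 negative, or 7.31% beside 9.02% of all IDs (5.29% positive and 3.73% negative). Of the 977 tested IDs without an Ensembl ID and with a mean under 5 FPKM, 30 were positive and 10 negative at that p. The median interaction was 0.07, beside 0.02 for all IDs, and 0.18 in the 67 long transcripts. Without WIN replicate 3 these 3 medians were 0.035 over the 301, 0.0082 for all IDs and 0.11 over the 67, and without cocaine replicate 2 the median over the 301 was 0.042. The 22 became 10 without control replicate 2, 12 without cocaine replicate 1, 14 without WIN replicate 3 and 14 without WIN with cocaine replicate 2, and 39 without cocaine replicate 3, 34 without WIN replicate 1 and 34 without WIN with cocaine replicate 1. In the same order the shares of all IDs were 3.89%, 5.87%, 5.15%, 6.71%, 12.3%, 13.5% and 11.7%, beside 3.32%, 3.99%, 4.65%, 4.65%, 12.96%, 11.3% and 11.3% of the 301.

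Novel02771 and Novel00050 had the smallest p with a positive interaction. Novel02771 (560 bp) had an FPKM of 9.03, 8.31 and 5.86 in control, 4.32, 5.73 and 5.66 in cocaine, 7.10, 6.69 and 6.78 in WIN, and 9.36, 8.56 and 6.97 in WIN with cocaine, an interaction of 0.71 (SE 0.21.) Cocaine was below control without WIN, and the libraries with both treatments lay within or above the range of WIN. Novel00050 (8762 bp), which rests on 4559 to 6588 reads per library, had 28.7, 28.5 and 28.4 in control, 22.9, 22.2 and 25.3 in cocaine, 27.2, 26.6 and 24.6 in WIN, and 26.4, 26.3 and 28.3 in WIN with cocaine, an interaction of 0.32 (SE 0.10.) Its controls were the tightest group, at 28.5 ± 0.172 (SD, n = 3).

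Novel00468 and Novel01489 had the smallest p with a negative interaction, both at -0.46, with SEs of 0.14 and 0.17. Novel00468 was high in WIN, as given above, and at 12.3, 13.0 and 10.5 FPKM in WIN with cocaine, below all WIN libraries. Novel01489 (643 bp) was at 14.9, 13.6 and 11.2 in cocaine and 9.32, 9.25 and 9.78 in control, without overlap, and at 11.1, 9.15 and 11.7 in WIN with cocaine and 10.2, 9.73 and 12.4 in WIN, with overlap. Each of the 4 had an adjusted p of 0.539 in limma, so the difference between the 2 cocaine responses did not pass the test in any of them.

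**Figure D5:**
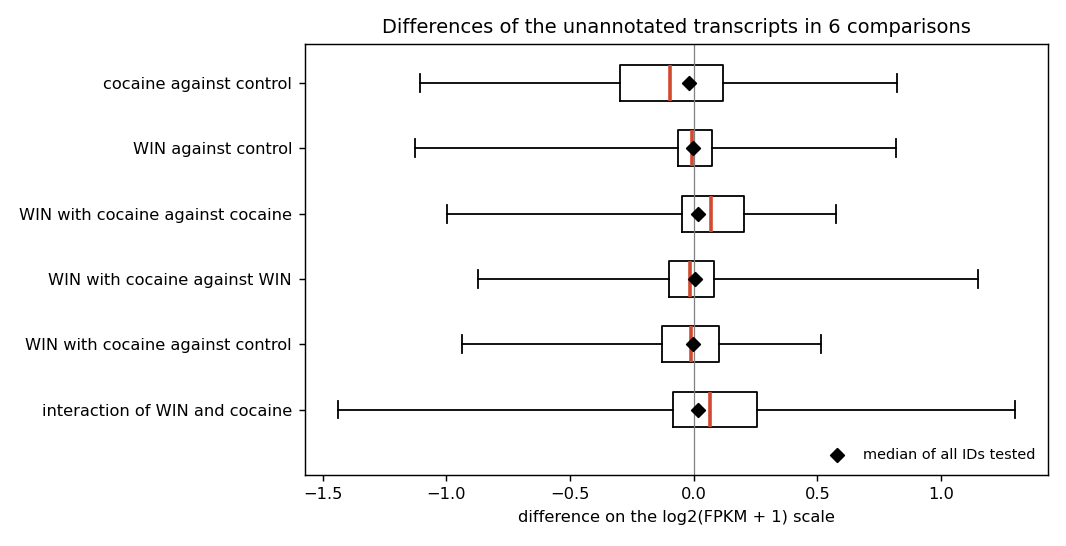
Differences of the 301 unannotated transcripts on the log2(FPKM + 1) scale (horizontal axis) in the 6 comparisons (vertical axis). Boxes span the quartiles with the median in red, whiskers reach the lowest and highest transcript, and black diamonds are the medians of all 15326 IDs tested; the box of cocaine against control is the one shifted lowest, with a median of -0.10.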

How the data were processed

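The authors deposited FPKM values per ID for 12 prefrontal cortex RNA libraries; the tools listed in the submitters' processing notes are HISAT2, HTSeq and DESeq. Their versions, genome build, annotation, strand setting and how the unannotated transcripts were assembled were not given in the sources used here. Reads of overlapping or antisense genes may therefore be shared. The labels' protocols name a stranded library kit from total RNA. The accumbens RNA libraries were not used here, nor were the ATAC libraries, since the IDs have no positions.

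Whole reads and lengths were recovered from the steps of the FPKM values. All 24197 IDs with a value gave whole reads (within 0.01 read), 20853897 to 27678853 per library, and the library sizes implied by the FPKM exceeded their sums by at most 0.000574%. For 35 of the 301 transcripts no library had more than 200 reads.

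Differences were fitted with limma 3.58.1 (R 4.3.3) on log2(FPKM + 1), which understates changes of low values, over all 12 libraries, with the prior variance following the mean level and Benjamini-Hochberg adjustment over the 15326 IDs that reached an FPKM of 1 in 3 or more libraries. All 301 members passed that filter. Calls used an adjusted p under 0.05. The recovery of reads and the limma fit were tested on simulated data. The values simulated for limma were drawn independently for each ID and library. Variation shared between IDs, as seen here, was not simulated, so that test does not check the calls under it. The members, lists and tests were chosen with earlier results of these data known. Named transcripts were those highest in level, nearest the threshold, with the smallest p in each direction in cocaine against control, WIN against control and the interaction, widest in range, longest, shortest and most correlated; others are named as repeats of these. Scaling, pseudocount, filter, weights, voom, block and left-out libraries were varied.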

Additional observations from a re-analysis of the deposited data

How the results depend on the processing

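For cocaine against control, the number of transcripts called was 0 in limma and 73 at an adjusted p under 0.10, beside 19.8% of all IDs. It was 40 with library weights and 34 with only the libraries compared. The share of all IDs called in these runs is not given here, so neither number can be read as particular to these transcripts. When each library was left out, the number was 0 to 66, the 66 being without WIN replicate 3. That library had the lowest library weight, 0.296. The cause was not tested. In the other 5 comparisons the number was 0 in limma and 0 in every alternative run. The median difference in WIN against control was -0.0049, 0.043 with library weights and -0.024 to 0.046 with a library left out; in WIN with cocaine against WIN it was -0.014, and -0.073 to 0.0053 with a library left out. The other medians moved by less than the spread between replicates: -0.13 to -0.07 in cocaine against control and 0.04 to 0.10 in WIN with cocaine against cocaine with a library left out. The number at an unadjusted p under 0.05 moved with weights as well, from 6 to 26 in WIN against control, 8 to 53 in WIN with cocaine against WIN, and 18 to 30 in WIN with cocaine against control, which had 40 with only the libraries compared. These counts too are given without the share of all IDs in the same run, which may have moved with them. Average shares of reads were 1.61%, 1.49% of summed FPKM and 1.34% for the 164 transcripts at 10 FPKM or more. The median length was 2124.5 bp over the 266 transcripts with more than 200 reads in a library. Alternatives of the long transcripts and of the counts by direction were chosen after the data were seen.

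With the replicate number as a block, 0 transcripts were called in all 6 comparisons, and the number at an unadjusted p under 0.05 in cocaine against control was 109 with the block and 112 without. The share of all IDs was 31.1% without the block and is not given here with it. Same-numbered libraries gave little sign of pairing: deviations correlated from -0.28 to 0.20, 4 of 18 pairs exceeded 0.1, and 4 of 12 libraries were closest to their own number.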
